A study of Triticum aestivum with 58 samples.

Results

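Among 82 seedling leaf RNA-seq libraries of spring wheat (Triticum aestivum), 29 had low expression at the end of the chromosome 1D identifiers and are described here against 37 other leaf libraries. The whole series holds 163 libraries, of which 81 are from root tissue. The libraries were chosen by their own counts. Segment genes were those from TraesCS1D02G428500 to TraesCS1D02G454700 with a median of at least 5 CPM in leaf (CPM being the count of a gene scaled to the total count of its library), which left 35 of 256 identifiers. The score of a library was the median over these genes of log2(CPM + 0.5) minus the gene's 75th percentile over the leaf libraries. A library was low at a score of -1 or less and other above -0.5, and 16 libraries between these limits were left out. Low libraries bear 20 cultivar names and other libraries 23, with 14 names in both classes. All plants are labelled as untreated control seedlings grown in optimum conditions, and only the tissue and the cultivar name are given for each sample. The study names 24 cultivars released in Pakistan, and 19 of 29 low and 31 of 37 other libraries bear one of these names.

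Bread wheat is a hexaploid whose sub-genomes A, B and D each carry a copy of most genes, and the corresponding copies are called homoeologues. Chromosomes 1A, 1B and 1D are homoeologous to each other. The copies are often near-identical in sequence, so that short reads can be hard to assign to one of them. Cultivars may also differ at chromosome ends by deletions, by exchanges between homoeologues and by segments from relatives of wheat. In these tables an identifier gives the chromosome and the order of a gene, but the files do not pair identifiers with gene names. Names were available for 95 genes of root architecture that the study lists, and very few other identifiers are printed.

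Leaf libraries were first compared with root libraries on 234 genes off chromosome 1D that are either on or off in nearly every library, since such genes mark the genotype. A share of at least 97% in the same state was taken as a match. Of the 29 low libraries, 22 matched at least 1 root library, and none matched a root library of its own name, although 24 had one to compare. Their best share with a root library of their own name was between 53.8% and 88.8%, with a median of 69.6%. Of the 37 other libraries, 29 matched a root library, and 5 of the 36 that could be compared matched their own name. Names and on/off genes thus disagreed between the tissues. Within leaf, 5 of 76 pairs of libraries of the same name matched, and 0 of 28 names had all their libraries matching. Within root, 41 of 78 such pairs matched, and 12 of 28 names had all their libraries matching. Whether any name is wrong was not tested, and below a name only identifies a library. Joined by the same 97% match, the low libraries formed 18 groups and the other libraries 19, and no group held both. These groups, with the counts of their libraries summed, were the samples of the main gene tests in leaf. Root scores were tested over means per cultivar name.

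The ranges of depth and of the tissue markers overlapped widely between the classes. Between 8544870 and 10335230 reads were counted per low library and between 8111979 and 10117977 per other library. The summed CPM of 18 root marker genes was at most 0.34 in low and 0.45 in other libraries, against 8.09 to 80.1 CPM in root libraries. The 3 photoperiod genes PpD, taken as leaf markers, summed to 42.6 to 221 CPM in low, 59.4 to 238 CPM in other and at most 4.47 CPM in root libraries. Over all expressed genes outside the segment, the median log2 ratio of a library to the median leaf library was between -0.39 and 0.32 in low and between -0.29 and 0.47 in other libraries, and this offset is part of the score. A chromosome other than 1D lay more than 0.5 from the offset of its library in 2 low and 1 other library. The farthest was 3B in Chakwal-97 leaf 2, a low library, at -4.14. Over the first 300 expressed genes of 1B, 5 of 29 low libraries and 0 of 37 other libraries also scored -1 or less. No pair of leaf libraries was a repeat of 1 library, as the most alike pair still differed 9.54 times more than counting noise (chi-square per gene).

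The score used for the choice was -1.95 in the lowest low library (Pak-13 leaf 2), -1.34 at the median and -1.03 in the highest (GA-2002 leaf 2). The first library outside the limit was Punjab-96 leaf 1 at -0.99. In the class other, the lowest score was -0.50 (T-9 leaf 2), the median -0.16 and the highest 0.49, and the nearest left-out library was Rawal-87 leaf 2 with a score that also rounds to -0.50. These values are a description of the choice, with no test. The scores run on without a gap at either limit.

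**Figure D1:**
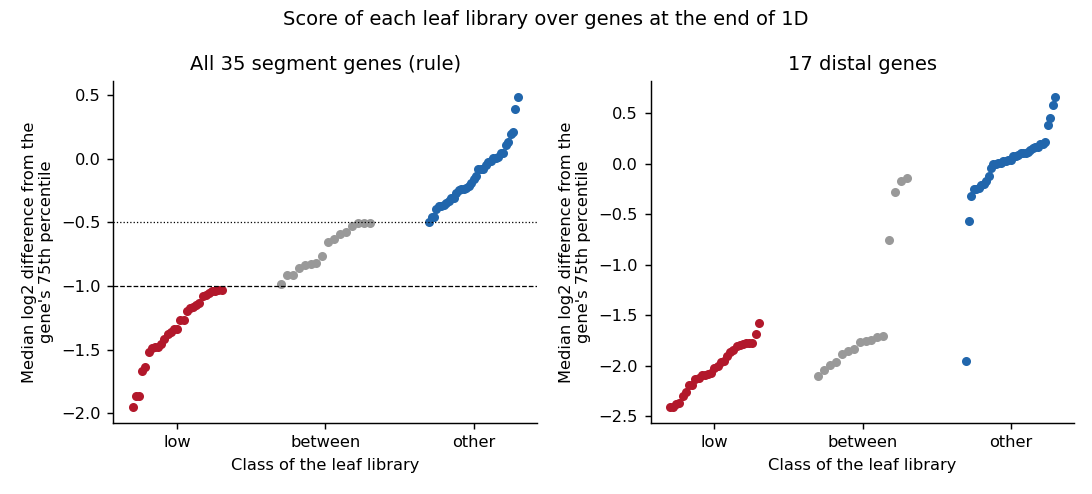
Score of each leaf library (points, in order within a class) at the end of 1D over all 35 segment genes at the left, with the limits of -1 (dashed) and -0.5 (dotted), and over the 17 distal genes at the right, both as median log2 differences from the 75th percentile. Over all genes the classes follow on from each other, and over the distal genes the libraries fall into a lower cluster that ends at -1.57 and a higher one that starts at -0.75.

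The segment did not move as a whole. Its first 18 expressed genes differed little between the classes, with mean differences of log2(CPM + 0.5), low minus other, between -0.73 and 0.29 (median -0.20) and 0 of 18 under -1. From TraesCS1D02G436500 to the last expressed gene, TraesCS1D02G452300, all 17 genes were lower in low libraries, by differences between -3.58 and -0.75 (median -2.10), and 15 of 17 were under -1. Over the 17 distal genes, the median CPM in low libraries was between 5.92% and 50.8% of that in other libraries, with a median of 22.02%. All 17 distal genes kept a median above 0 in low libraries, the lowest being 1.40 CPM. This is in part set by the filter. The distal score was -1 or less in 42 of the 82 leaf libraries, and a gene silent in all of these could not have passed a median of 5 CPM. The 20 expressed genes before the segment had a median difference of -0.14, with a range of -1.44 to 0.59. No 1D gene after the segment passed 5 CPM. The border between proximal and distal genes was chosen after these values were seen.

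TraesCS1D02G451200 showed the largest difference, -3.58. It had 0, 1.40 and 4.89 CPM as the lowest, median and highest value in the 29 low libraries, against 1.94, 23.6 and 35.1 CPM in the 37 other libraries. All 29 low libraries were below the median of the other libraries, and 19 were below every one of them. TraesCS1D02G452200, second to last in the segment, had 1.69, 6.49 and 28.2 CPM in low libraries, against 4.60, 72.3 and 326 CPM in other libraries, a difference of -3.39. Here 10 low libraries were below all other libraries. At the weak end, TraesCS1D02G436500, the first distal gene, had 4.56 CPM at the median of low libraries and 8.98 CPM at that of other libraries, and the classes overlapped.

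The other 221 identifiers of the segment were under a median of 5 CPM, and 63 of these had no read in any leaf library. A mean of at least 1 CPM in a class was reached by 78 of the 221. On the log2 scale used above, 63 distal identifiers among the 78 had a median difference, low minus other, of -2.33. Of these distal identifiers, 56 were under -1 and 0 above 1. The 15 proximal identifiers had a median difference of -0.21, with 1 under -1. The 78 were not part of the score, and their differences were not tested.

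**Figure D2:**
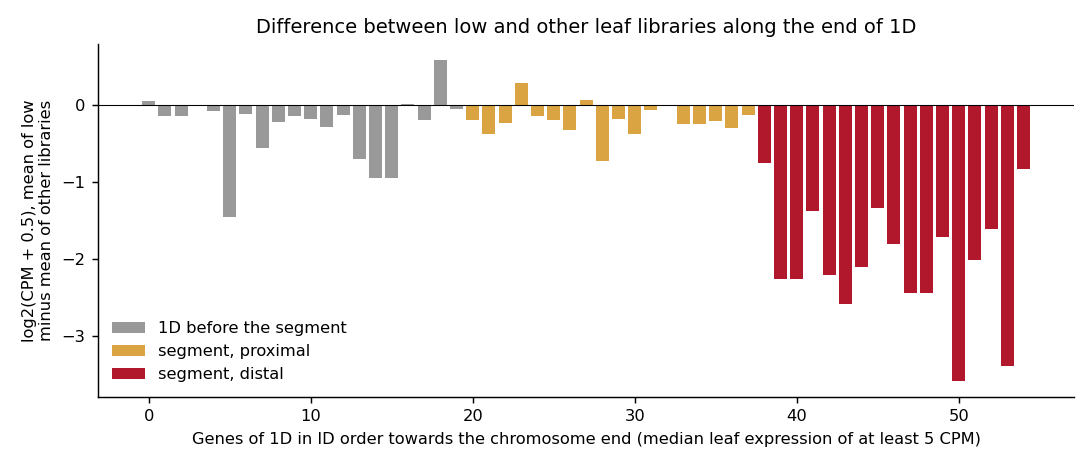
Difference between the mean of the 29 low and the mean of the 37 other leaf libraries in log2(CPM + 0.5) for each expressed gene of 1D in identifier order, for the 20 genes before the segment (grey), the 18 proximal genes (yellow) and the 17 distal genes (red). The median is -2.10 over the distal genes against -0.20 over the proximal genes. The first distal gene, at -0.75, is close to the lowest proximal gene, at -0.73, and the second distal gene is at -2.26.

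The 17 distal genes are part of the rule and were picked for their difference, so their score describes the libraries again and supports nothing. It put 42 libraries at -1.57 or less and 40 at -0.75 or more, with none in between. The lower cluster held all 29 low libraries, 12 of the 16 left-out libraries and 1 library of the class other, Pak-13 leaf 3, whose distal score was -1.96 and whose proximal score was 0.13. The summed CPM of the distal genes was 92.9 to 161 in low libraries, with a median of 117, against 114 to 766 in other libraries, with a median of 508. Without Pak-13 leaf 3 the other libraries started at 304 CPM, and the classes did not overlap. No group of matched libraries was split by the distal score. Several values below are also given without Pak-13 leaf 3.

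Whether the low state also occurs in the root libraries, which were not used for the choice, was asked in a pair of ways. The root score was computed in the same manner over the 73 segment genes with a median of at least 5 CPM in root. Of these 73 genes, 53 were distal, against 17 of 35 in leaf, so the root score rests more on distal genes. The 2 scores are therefore not on a like scale. The root score was -2.20 or less in 38 root libraries and -0.81 or more in 43. By cultivar name, no difference in root score was found between the leaf classes. The mean root score was -1.07 ± 1.03 over 18 names with a low leaf library and -1.38 ± 1.15 over 10 names without one (SD over names). The difference of 0.32 did not pass a two-sided permutation test (p = 0.457, 100000 resamples), and it turned to -0.36 (permutation p = 0.429) without the libraries numbered 2. Names without a low leaf library include Rawal-87 and Ujala-2016, whose left-out libraries were low over the distal genes. With the classes set by the 17 distal genes, 22 and 6 names differed by 0.52 (exact permutation p = 0.292).

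By on/off genes, root libraries followed the leaf classes closely. Root libraries that matched low leaf libraries only were 28, of 15 names, and all 28 had a root score of -2.20 or less. Root libraries that matched other leaf libraries only were 34, of 17 names, and 1 of them was low. The mean per name was -2.46 ± 0.14 (SD, 15 names) for roots matched to low leaves and -0.19 ± 0.60 (SD, 17 names) for roots matched to other leaves. The difference of -2.27 had a permutation p of 2e-05 (two-sided, 100000 resamples, the smallest these resamples can give). This p and that of the test by name are 4e-05 and 0.457 after Benjamini-Hochberg adjustment over both. Since 5 names were in both classes and names share genotypes, the test was repeated on 12 and 12 groups of matched root libraries, where the difference was -2.20 with the same smallest p. The exception was GA-2002 root 3 at -2.49, the match of Pak-13 leaf 3. Without Pak-13 leaf 3 the roots matched to other leaves had a mean of -0.05 ± 0.05 (SD, 16 names).

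**Figure D3:**
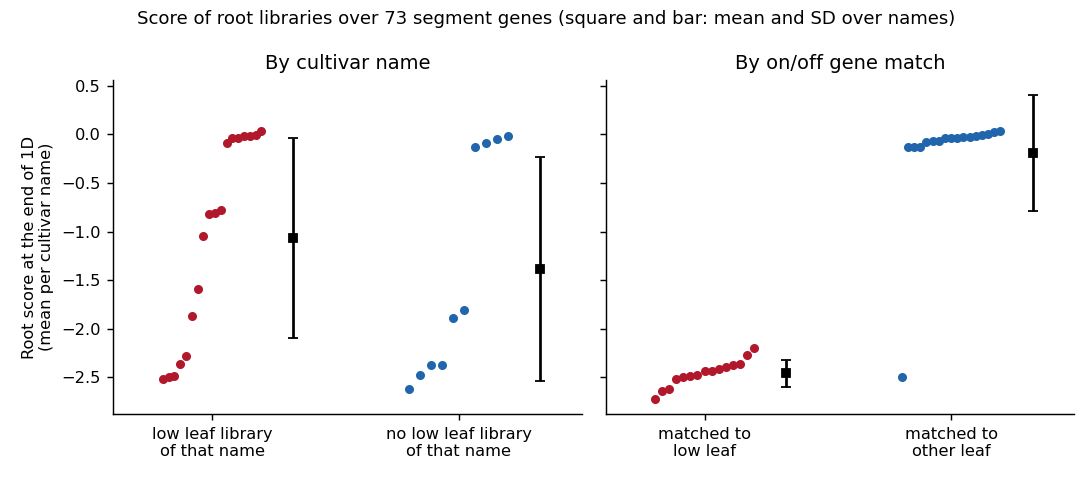
Root score at the end of 1D (median log2 difference from the 75th percentile over 73 genes), as the mean per cultivar name (points), with the mean and SD over names (squares and bars). At the left, names with and without a low leaf library overlap (means of -1.07 and -1.38). At the right, roots matched to low leaves lie between -2.73 and -2.20, and all but 1 of the roots matched to other leaves lie at -0.13 or higher.

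Outside the segment, the main result was at the end of chromosome 1B, where genes were higher in the low libraries. Of 44043 genes tested on 18 low and 19 other sums, 14 passed an adjusted p of 0.1 (0.0318%), of which 13 were higher (0.0295%) and 1 was lower (0.00227%) in low libraries, and 4566 genes had an unadjusted p under 0.05 (edgeR's quasi-likelihood F-test, Benjamini-Hochberg adjustment). Of the 13 higher genes, 11 are on chromosome 1B, and 10 of these are among its last 88 of 4714 identifiers. The log2 fold changes of these 10 genes were between 0.35 and 2.35, with a median of 0.81. The median over all genes tested was 0.01, and the medians of the chromosomes lay between -0.05 (3B) and 0.06 (6D) over expressed genes.

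TraesCS1B02G476500 had the smallest p of all genes tested. It had 18.5, 25.6 and 33.2 CPM as the lowest, median and highest of the 18 low sums, against 12.6, 15.4 and 21.8 CPM in the 19 other sums. All 18 low sums were above the median of the other sums, and 14 were above every one of them. The log2 fold change was 0.80 ± 0.07 (SE, adjusted p = 1.15e-09, edgeR). TraesCS1B02G480800, the third-last expressed gene of 1B, had 8.08, 12.5 and 28.2 CPM in low sums, against 2.33, 4.98 and 12.1 CPM in other sums. Again all 18 low sums were above the median of the other sums, and 10 were above every one. Its log2 fold change was 1.51 ± 0.16 (SE, adjusted p = 3.46e-07, edgeR). What these genes encode is not given in the sources used here.

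Of the last 35 expressed genes of 1B, as many as the segment holds, 8 were higher and 0 lower at the threshold, beside 0.0295% higher over all genes tested. The fitted log2 fold change was above 0 for 32 of 35, with a median of 0.36, and 21 had an unadjusted p under 0.05, all of them higher. Over all genes tested, 22708 of 44043 were above 0. By 20 expressed genes counted back from the end, the median log2 fold change on 1B was 0.43, then 0.33, then 0.04. At the end of 1A, 0 of 35 genes passed in either direction, 23 were above 0, the median was 0.10 and 7 had an unadjusted p under 0.05. On 1D, 0 of the last 35 expressed genes before the segment passed, with a median of 0.03 and 5 at an unadjusted p under 0.05. The 3 expressed genes nearest to the segment had log2 fold changes between -0.05 and 0.15, none past the threshold. Whether the 1B genes are the homoeologues of the 1D genes could not be looked up, because no table given here pairs them.

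**Figure D4:**
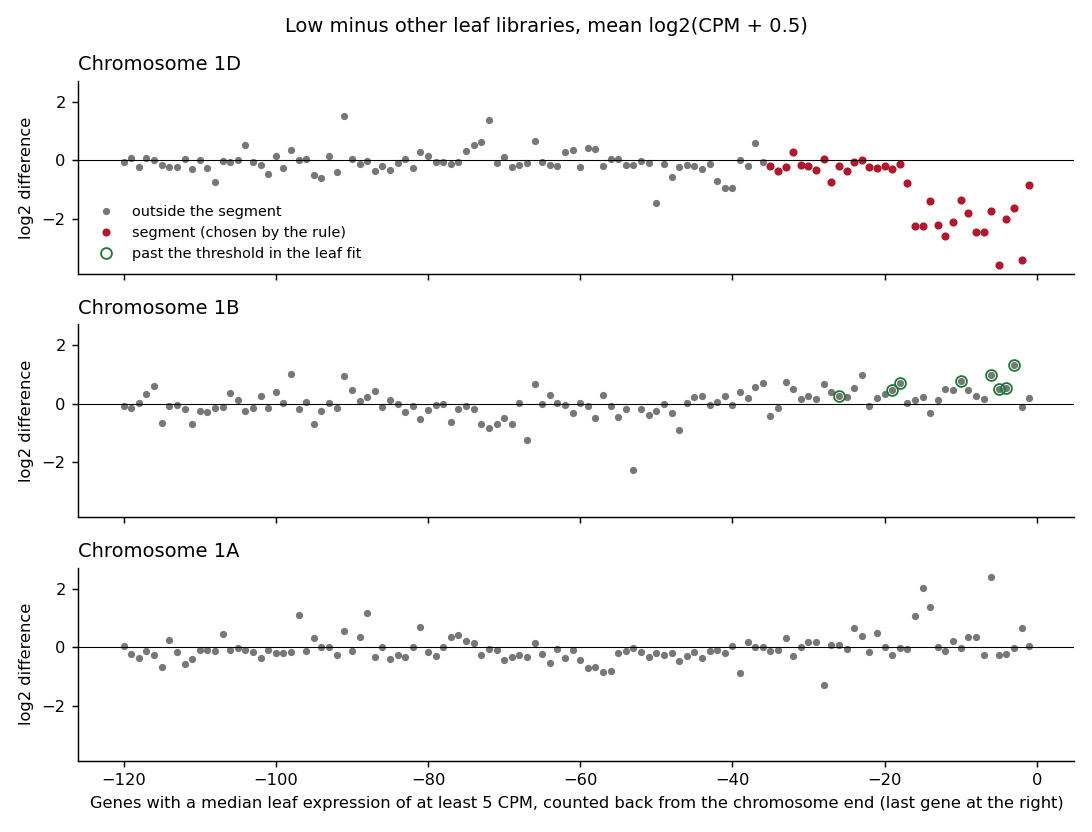
Mean log2(CPM + 0.5) of low minus other leaf libraries for the last 120 expressed genes of 1D, 1B and 1A, in order towards the chromosome end at the right, with segment genes in red and genes past the threshold of the leaf fit circled in green. The last 17 genes of 1D lie below 0, and 8 of the last 35 genes of 1B are circled, all above 0.

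In summed expression the end of 1B was also higher. Its 35 genes summed to 633, 857 and 1321 CPM as the lowest, median and highest of the 29 low libraries, against 475, 666 and 967 CPM in the 37 other libraries. The median of the low libraries was 129% of that of the other libraries. Of 29 low libraries, 27 were above the median of the other libraries and 9 above every one of them. Pak-13 leaf 3, which the rule put among the other libraries, had 905 CPM. The left-out libraries were not used in the fit, and the 12 of them with a low distal score had 688 to 995 CPM (median 884), against 413 to 613 CPM (median 583) in the 4 with a high distal score. At the end of 1A the same libraries separated as well, with 838 to 1084 CPM (median 958) in the 12 and 490 to 735 CPM (median 667) in the 4. Over all expressed genes of 1A, the median log2 ratio to the median leaf library was -0.69 to -0.16 in the 4. In the 12 it was -0.12 to 0.26. Such an offset is part of the score, so the sums of the left-out libraries are not independent of the choice. In addition, 6 groups of matched libraries held both low and left-out libraries. The 4 with a high distal score were in groups with other libraries. The left-out libraries are thus not a separate set of genotypes. The mean difference, low minus other, was 196 CPM over the 35 genes of 1B and -403 CPM over the 17 distal genes of 1D. The 35 genes at the end of 1A summed to 637, 923 and 1335 CPM in low libraries, against 579, 759 and 1262 CPM in other libraries. The median of the low libraries was 122% of that of the other libraries, 25 of 29 low libraries were above the median of the other libraries, and 3 were above every one of them. In summed expression 1A was thus higher too, and whether 1A and 1B differ was not tested.

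In bulk tissue, fewer cells of a type and less RNA per cell cannot be told apart, and in counts of short reads the same holds for fewer transcripts and fewer reads assigned to a copy. Genes at the ends of 1A, 1B and 1D may share reads, which makes the split of counts between them uncertain. Their part in the result was not tested.

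The rise at the end of 1B was seen again in root. Counts of the root libraries were summed over groups of matched root libraries, which gave 12 sums matched to low leaves and 12 matched to other leaves. This comparison was added after the leaf result was seen. Of 58613 genes, 126 passed (0.215%), of which 36 were higher (0.0614%) and 90 lower (0.154%) in roots matched to low leaves (edgeR, adjusted p under 0.1). Of the 34 tested genes at the end of 1B, 9 were higher and 0 lower, 32 were above 0, and the median log2 fold change was 0.31. Of the 10 genes called at the end of 1B in leaf, 9 were tested in root, 9 were above 0 and 7 were higher at the threshold, with log2 fold changes between 0.22 and 0.86 over the 9. TraesCS1B02G480800 had a median of 17.1 CPM in root sums matched to low leaves and 9.10 CPM in root sums matched to other leaves, with a log2 fold change of 0.72 ± 0.11 (SE, adjusted p = 0.0017, edgeR). At the end of 1A, 2 of 32 tested genes were higher and 0 lower. Without GA-2002 root 3, 226 genes in place of 126 passed, and 13 of 34 genes at the end of 1B and 5 of 32 at the end of 1A were higher. The leaf and root comparisons share no library, but matched leaf and root libraries are taken to be of the same genotype, so root is not a second set of genotypes.

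In the root fit the segment differed on the 2 sides of the same border. The border was set on leaf values, and the roots were classed through leaf libraries chosen on this segment. These calls are thus not independent of the choice. Of the 68 distal genes tested in root, 62 were lower and 0 higher, with a median log2 fold change of -2.67. An unadjusted p under 0.05 was found for 67 of them, 1 of these higher, and the highest log2 fold change was 3.25 (edgeR). Of the 40 proximal genes, 0 passed in either direction, 4 had an unadjusted p under 0.05, and the median was -0.01. In root 108 segment genes passed the filter of the fit. At a median of at least 5 CPM there were 73 segment genes in root and 35 in leaf. Outside the segment, 36 genes were higher and 28 lower in root, of 58505 tested, and 17 of these 64 are on 1B.

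**Figure D5:**
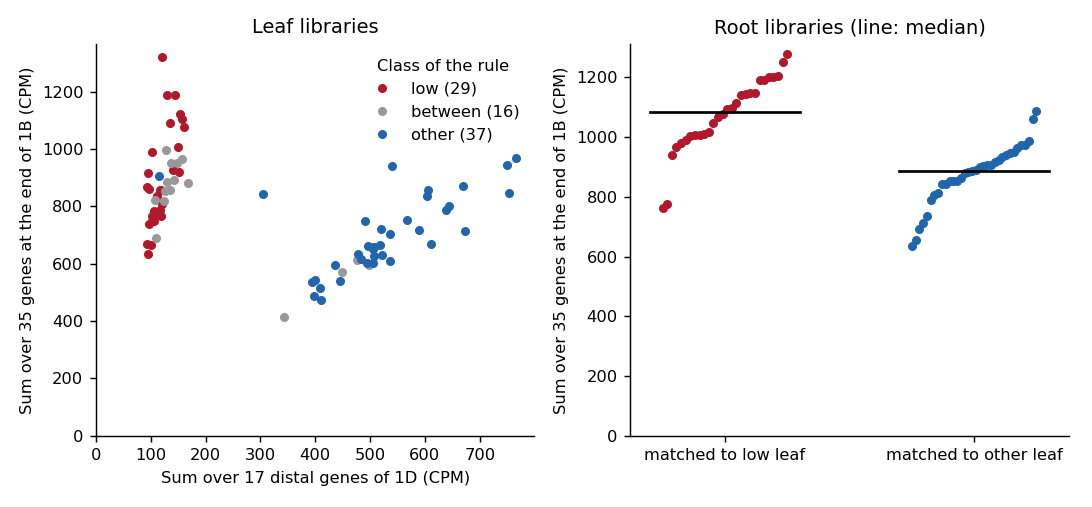
At the left, the summed CPM of the 35 genes at the end of 1B against that of the 17 distal genes of 1D in each leaf library, by class. At the right, the sum over the same 1B genes in 28 root libraries matched to low leaves and 34 matched to other leaves (points, with the median as a line). Leaf libraries low on 1D have a median of 857 CPM on 1B, against 666 CPM in other leaf libraries, and the root medians are 1086 CPM for roots matched to low leaves and 888 CPM for roots matched to other leaves.

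Only 4 genes past the threshold in leaf lay away from the end of 1B. One gene on unplaced sequence had 0.69, 6.04 and 30.4 CPM as the lowest, median and highest low sum, against 0, 0.04 and 8.29 CPM in other sums (log2 fold change 4.34 ± 0.77, SE, adjusted p = 0.0128, edgeR). All 18 low sums were above the median of the other sums, and 7 were above every one of them. The log2 fold change was 6.19 without Pak-13 leaf 3. Without a replicate number it was 3.31 (number 1, not past the threshold) or 5.97 (number 3), and with the left-out libraries counted as other it was 1.58 and not past the threshold. On 3B, a gene near the start of the identifiers had a log2 fold change of 2.50 ± 0.53 (SE, adjusted p = 0.0946, edgeR), but its low sums ran from 0.61 to 238 CPM and spanned those of the other sums, 1.19 to 20.5 CPM. A further 1B gene, with 1053 identifiers left to the end, had a log2 fold change of 0.74 ± 0.15 (SE, adjusted p = 0.0934, edgeR) in leaf and did not pass in root (adjusted p = 0.781, edgeR). The single lower gene, TraesCS2B02G184100, had 0.34, 0.72 and 5.16 CPM in low sums, against 0.40, 4.09 and 12.02 CPM in other sums. Its log2 fold change was -1.81 ± 0.36 (SE, adjusted p = 0.0496, edgeR) in leaf and -1.95 ± 0.38 (SE, adjusted p = 0.0191, edgeR) in root. In 17 of 18 low sums it was not above the median of the other sums.

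The number of genes called depended strongly on the unit of the fit. The 35 genes at the end of 1B had at least 1 higher call and 0 lower calls in each of the 19 alternatives. These alternatives use the same or overlapping libraries and are not independent of the main fit. DESeq2 on the same sums called 222 genes (0.504%), 125 higher (0.284%) and 97 lower (0.22%), of which 16 higher and 0 lower were among the 35 at the end of 1B. With each library on its own, 927 genes passed (2.11%), 533 were higher (1.21%) and 394 lower (0.895%), and 19 of the 35 genes at the end of 1B and 4 of the 35 at the end of 1A were higher. With the replicate number as a block in that fit, 578 were higher and 318 lower, 896 in all, and 18 of the 35 were higher. Both fits count libraries of the same match group as separate samples. Without the libraries numbered 1, 3 genes passed, all 3 at the end of 1B. Without Pak-13 leaf 3, 22 genes passed, 19 higher and 3 lower, and 11 of them were among the 35. With the classes set by the distal genes 27 passed, 12 of them among the 35. Without the libraries low on the first 300 genes of 1B, 14 genes passed, 6 of them among the 35, and without those with a chromosome over 0.5 from the library's offset 13 passed, 6 of them among the 35. With the left-out libraries counted as other, 12 of which had a low distal score, 10 passed, 3 of them among the 35.

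None of the root architecture genes of the study passed the threshold between the classes. Of the 95 genes, 58 could be tested in leaf, 0 passed in either direction, and DESeq2 also called 0. An unadjusted p under 0.05 was found for 5 of them, and for 3 of 60 without Pak-13 leaf 3 (edgeR). Over all genes tested, 0.0318% passed, and 0.504% with DESeq2. No call among the 58, in all or by family, is thus near that share and no trait of these genes. The median log2 fold change was 0.04 beside 0.01 over all genes tested. By family, 0 of 16 auxin genes, 0 of 7 crown and lateral root genes, 0 of 6 expansin genes, which loosen cell walls, 0 of 12 root hair genes and 0 of 6 receptor kinases passed. The root hair genes had a median log2 fold change of 0.41, with 10 of 12 above 0 and 4 at an unadjusted p under 0.05, beside 22708 above 0 and 4566 at such a p among all 44043 genes. Of the crown and lateral root genes 6 of 7 were below 0, with a median of -0.15, and of the expansins 5 of 6, with a median of -0.08. The 3 PpD photoperiod genes, pseudo-response regulators that act in flowering time, had log2 fold changes between -0.49 and 0.30. The smallest p was that of SOR1_2D, with 1.68 ± 0.60 CPM in low sums and 2.60 ± 1.22 CPM in other sums (SD, 18 and 19 sums, adjusted p = 0.389, edgeR).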

How the data were processed

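RNA-seq counts of leaf and root libraries were used as deposited. Per the labels and the methods of the study, the authors made oligo(dT) single-end libraries, sequenced them on BGISEQ-500, mapped the reads with HISAT2 and counted them on genes with featureCounts, so the values are whole-number counts without normalization. The strand setting is not given in the sources used here. The deposited tpm tables, which hold the same libraries, were not used. CPM used the total count of a library. The 17 distal genes, the libraries and the gene lists were chosen with earlier results of these data known.

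An on/off gene had no more than 5% of libraries between 0.15 CPM (off) and 2 CPM (on), and each state in more than 5% of the leaf and of the root libraries. Counts of libraries of 1 class that shared at least 97% were summed and tested with edgeR 4.0.16 in R 4.3.3 (TMM, filterByExpr, trended dispersion, quasi-likelihood F-test, Benjamini-Hochberg over all genes tested, threshold 0.1 as in the study). DESeq2 1.42.0 was an alternative. Standard errors were derived from the F statistic. The fit was tested on simulated data with known changes in 200 of 44146 genes. It recovered 74 of 107 changes of fold 2 and 88 of 93 of fold 4, and called 10 unchanged genes. Simulated counts were drawn independently for each gene and sum, so they lack the linked neighbouring genes of the real data. Root scores were compared by permutation over cultivar names (Python 3.11.15, scipy 1.17.1). Seed was sown in triplicate per the study, but nothing says whether replicates came from separate trays. The p-values of the main fits measure the spread between sums of matched libraries. Those of the root scores measure the spread between names or matched groups. Part of either spread may be technical.

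Named genes outside the segment were those past the threshold with a mean of at least 5 CPM in a class, by size and by p, but only 2 that rose and 1 that fell are given by identifier, and the gene on 2B and 2 genes on 1B were below 5 CPM and counted after their values were seen. Replicate numbers come from the column names. Same-numbered low and other libraries deviated together weakly (correlations of 0.295, 0.12 and 0.136 over 24097 genes for numbers 1, 2 and 3), so a fit of single libraries with the number as a block was run. Sums mix numbers and allow no block. Library depth limits single low genes, where counting noise is largest.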

Additional observations from a re-analysis of the deposited data

Results flagged for a closer look

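Of the 16 leaf libraries between the limits of the rule, which the comparison of low and other libraries left out, 12 had a score of -1 or less over the 17 distal genes, as all 29 low libraries did. Their distal scores were between -2.10 and -1.70. Of the 16, 15 matched a root library on the on/off genes, and all 12 with a low distal score matched root libraries that were low at the end of 1D. The other 4 had distal scores between -0.75 and -0.14.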

How the results depend on the processing

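The count of 14 genes called outside the segment moved with most settings: 927 with each library on its own, 896 with the replicate block, 69 with sums per cultivar name, 222 with DESeq2, 349 with no filter other than 1 count, 8 with at least 10 counts in every sum, 9 with the 24 cultivars of the study's table only, 8 without libraries with a chromosome median beyond 0.5, the offset of the library included, 9 at an adjusted p under 0.05, 5 with a log2 fold change of at least 1 as well and 8 with a match of 95%. Settings chosen after seeing the data gave 27 (classes from the distal genes), 22 (without Pak-13 leaf 3), 14 (without libraries low on the first 300 genes of 1B) and 13 (without libraries with a chromosome over 0.5 from the library's offset). Leaving out a replicate number gave 3 to 15. The 14 genes kept their sign in 260 of 260 pairs of gene and alternative and passed in 181. The genes were picked in the main fit. The alternatives with a stricter threshold reuse its fold changes, and the others refit the same or overlapping libraries. The kept signs were thus largely fixed in advance and are no support. The difference of root scores by match was -2.40 to -2.24 with a number left out and kept its sign and its call in all alternatives, at -0.68 over the 35 leaf genes. By name it was -0.36 to 0.44 with a number left out. In root, 126 genes became 480 with DESeq2, 295 with sums per name, 6804 with single libraries and 226 without GA-2002 root 3, and 84 to 142 with a number left out. The causes were not tested.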
